A study of Rattus norvegicus with 9 samples.

Results

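Mitochondrial protein import and chaperone genes encode the machinery that carries proteins made in the cytosol into mitochondria and folds them there. They were taken as all protein-coding genes whose symbol begins with Timm or Tomm and a digit, together with Pam16, Samm50, Mtx1, Mtx2, Chchd4, Gfer, Grpel1, Hspa9, Hspd1, Hspe1, Pmpca, Pmpcb and Dnajc19. This rule found 37 of the 34092 genes in the table. Of these, 34 reached a mean of 0.5 fragments per kilobase and megafragment (FPKM) over all libraries and were among the 15958 genes tested. Timm8a2, Timm8b and Timm17b did not.

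RNA was sequenced from wild-type rat hippocampal neurons, cultured from fetuses of embryonic day 17 and treated at 7 days in vitro, in 9 libraries. The 3 Control libraries came from cultures given vehicle. The 3 PCT libraries came from cultures given 1 nM human PCT (procalcitonin) for 24 h, and the 3 NPCT libraries from cultures given 1 nM human NPCT (aminoprocalcitonin, its N-terminal fragment) for as long. The methods describe RNA of pooled biological triplicates and the labels 3 replicates per group, so p-values here measure the spread between these libraries, which may in part be technical. A library held between 13573056 and 17211642 fragments on genes.

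Nearly all mitochondrial proteins are encoded in the nucleus and enter through the TOM complex of the outer membrane, where receptors hand precursors to a channel. The TIM23 complex with its motor then pulls presequence proteins into the matrix, small TIM chaperones escort membrane proteins across the intermembrane space, and the TIM22 complex inserts carriers into the inner membrane. In the matrix, a peptidase removes the presequence and chaperones fold the protein. Neurons depend on this route for the respiratory chain that supplies ATP to their synapses.

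The TOM subunit gene Tomm6 was higher with either peptide than in Control. With PCT, the chaperonin gene Hspd1 and the small TIM gene Timm8a1 were also higher. When the peptides were compared directly, Timm13 was higher with NPCT, whereas 7 genes, among them the receptor genes Tomm20 and Tomm70 and the chaperone genes Hspd1, Hspe1 and Hspa9, were lower with NPCT than with PCT, beside 8.32% of all genes tested. Of these calls, only those of Tomm70 and Hspd1 between the peptides held in all 9 fits that left out a single library, and the call of Hspa9 held in 5 of 9, while each of the others was lost in most such fits. A gene was called changed at an adjusted p of at most 0.05 (limma on log2(FPKM + 0.1), all 9 libraries, two-sided, Benjamini-Hochberg over all genes tested), and differentially expressed where the fold change was also above 1.5-fold.

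Upstream sequences are shown for Hspe1, whose start region is shared with that of Hspd1, and for Tomm7. Tomm7 was the import gene with the largest fold change with NPCT against Control, though not called (adjusted p = 0.0509, limma). The sequences are the 250 bases before the gene start in RefSeq (build GRCr8, both on the plus strand), at chr9:64084077-64084326 for Hspe1 and chr4:12197253-12197502 for Tomm7. Capitals mark units of the heat shock element in Hspe1 and the NRF-1 core in Tomm7.
Hspe1: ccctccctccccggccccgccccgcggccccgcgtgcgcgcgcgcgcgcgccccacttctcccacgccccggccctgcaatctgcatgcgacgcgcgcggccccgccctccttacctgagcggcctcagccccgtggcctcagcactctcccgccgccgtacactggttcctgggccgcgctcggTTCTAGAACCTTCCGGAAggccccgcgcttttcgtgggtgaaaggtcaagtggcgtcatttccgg
Tomm7: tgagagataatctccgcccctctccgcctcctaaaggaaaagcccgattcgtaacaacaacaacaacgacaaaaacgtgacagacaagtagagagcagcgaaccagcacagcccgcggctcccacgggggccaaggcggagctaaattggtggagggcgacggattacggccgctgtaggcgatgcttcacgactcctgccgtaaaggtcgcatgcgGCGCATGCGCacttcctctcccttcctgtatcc

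The capitals in Hspe1 begin 65 bases before the start. Read on the other strand they are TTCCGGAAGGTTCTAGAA and lie before the start of Hspd1, because both genes diverge from starts 290 bases apart in this annotation (in the deposited table, on Rnor_6.0, the genes lie 1197 bases apart). Promoter windows of 300 bases (250 before and 50 after the start) were found for 35 of the 37 genes, all but Timm29 and Tomm34, and for 33469 genes in all. Letters were searched on both strands. A pair of facing heat shock units (TTCNNGAA or GAANNTTC) stood in the windows of Timm10, Tomm22, Hspd1, Hspe1 and Hspa9, that is 5 of 35, beside 15.9% of all windows. The form of 3 units (TTCNNGAANNTTC or GAANNTTCNNGAA), which contains the former, stood in Hspd1 and Hspe1 alone among the import genes, beside 0.798% of all. The windows of Hspd1 and Hspe1 share 211 bases that hold this stretch. The same stretch is thus counted for both genes, also among the facing units and the Ets letters. The NRF-1 core GCGCATGCGC stood in Tomm7, 33 bases before its start, and in Chchd4 and Grpel1, beside 0.852% of all. Ets letters (CCGGAAG), which can share bases with a heat shock unit, stood in 14 of 35 beside 8.75% of all, and CCAAT in 12 of 35 beside 37.5%. Such matches describe letters and were not measured as binding.

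The cultures carried the RNA of neurons and also that of glia. The 12 neuronal markers summed to 2135 to 2209 FPKM in Control, 2025 to 2088 with NPCT and 2109 to 2314 with PCT, so that NPCT lay wholly below Control. With NPCT their median log2 fold change was -0.27, and 8 of 12 were lower at an unadjusted p under 0.05 (limma), beside 14.9% of all genes tested, but 0 at an adjusted p of at most 0.05, which 0.47% of all genes reached in either direction. The 9 markers of the oligodendrocyte lineage summed to 409 to 427 FPKM in Control, 439 to 455 with NPCT and 354 to 368 with PCT. Olig1, the most abundant of them, was lower with PCT (185 to 195 FPKM, beside 259 to 279 in Control), whereas 7 of the 9 had a fold change above 1 with PCT and the median log2 fold change was 0.17, beside 0.18 with NPCT. The 8 astrocyte markers summed to 2438 to 2616 FPKM in Control, 2385 to 2658 with NPCT and 2101 to 2170 with PCT, and 7 of 8 were lower with PCT than in Control at an adjusted p of at most 0.05 in limma, beside 2.46% of all genes. Microglial markers (10 genes tested) summed to 27.0 to 38.8 FPKM in Control and 14.2 to 18.8 with PCT. With NPCT they summed to 37.9, 42.1 and, in replicate 3, 175 FPKM, and this library stands apart from the other NPCT libraries. In bulk RNA, fewer cells of a type and less RNA per cell cannot be told apart, and the part of these markers in the results below was not tested. Genes of the mitochondrial genome took 5.44% ± 0.352 (SD, n = 3) of the fragments in Control, 3.96% ± 0.239 with NPCT (p = 0.1 in an exact permutation test, two-sided, which 3 against 3 libraries cannot go below) and 5.26% ± 1.06 with PCT (p = 0.9). The PCT libraries had 6.21%, 5.46% and, in replicate 3, 4.11%, which is within the range of NPCT (3.70% to 4.17%) and below every Control library. The PCT libraries did not resemble one another in gene length. Relative to the mean of all libraries, the log2 level fell by 0.028 per doubling of gene length in PCT replicate 3, while the slope was 0.022 and 0.027 in PCT replicates 1 and 2. It lay between -0.0006 and 0.028 in Control and between -0.026 and -0.019 with NPCT. PCT replicate 3 thus resembled the NPCT libraries in both respects. For the import genes, calls that were gained or lost without it are given both ways where the gene is described or in the counts over single libraries at the end. For the cell type markers and the other lists of genes, fits without this library are not given.

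Levels of the import genes ranged over all libraries from a mean of 299 FPKM for Tomm6 to 4.12 FPKM for Tomm5, on a scale that is per length. Next to Tomm6 stood the chaperonin genes Hspe1 and Hspd1, the receptor gene Tomm20 and the motor gene Hspa9. In Control, Hspe1 (168 ± 2.78, SD, n = 3) stood above Hspd1 (135 ± 4.41) with no overlap, and Hspd1 above Tomm20 (119 ± 4.80), also without overlap. Further down, neighbours such as Timm17a (40.6 ± 2.69), Pmpcb (37.9 ± 2.03), Pam16 (37.1 ± 3.94) and Tomm34 (36.9 ± 3.43) overlapped in Control. The summed level of the 34 genes was 1499, 1507 and 1562 FPKM in the Control libraries, 1816, 1659 and 1945 with NPCT and 1791, 1926 and 1985 with PCT. All 6 treated libraries summed above all 3 Control libraries. For NPCT replicate 2 this rested on Tomm6, Tomm7 and Timm13, the 3 genes with the largest fold changes with NPCT. Without them, the other 31 genes summed to 1218, 1237 and 1238 FPKM in Control, 1274, 1193 and 1338 with NPCT and 1433, 1505 and 1483 with PCT, and NPCT replicate 2 then lay below Control. Removing genes chosen in this way had to bring NPCT nearer to Control, and the genes with the largest fold changes with PCT were not removed likewise.

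**Figure D1:**
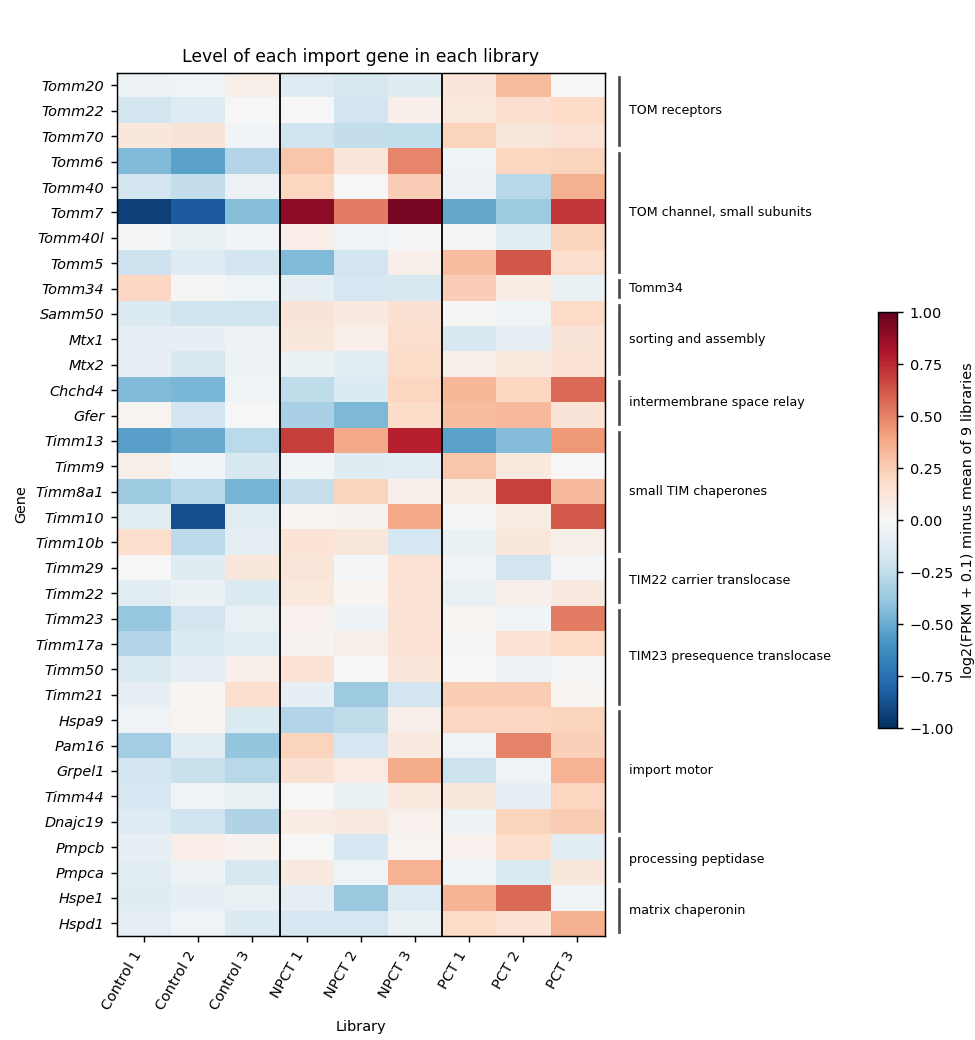
Level of each of the 34 import genes tested (vertical, grouped by role) in each of the 9 libraries (horizontal), coloured by log2(FPKM + 0.1) minus the gene's mean over the libraries. Colours end at -1 and 1. Tomm7 and Timm13 are high in the 3 NPCT libraries and in PCT replicate 3, while Hspd1 and Hspa9 are high in all 3 PCT libraries.

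With NPCT, 1 of 34 import genes was differentially expressed against Control, namely Tomm6, and no other passed the adjusted threshold of 0.05 (limma). Of all genes tested, 0.219% were differentially expressed in this comparison and 0.47% passed the adjusted threshold alone. At an unadjusted p under 0.05 there were 11 import genes higher and 2 lower, beside 14.4% and 14.9% of all genes tested. The NPCT libraries lay wholly above Control for 14 import genes, or 41.2%, beside 20% of all genes, and wholly below for 4, or 11.8%, beside 20.3%. The fold change was above 1 in 23 of the 34, beside 50.8% of all genes. The median log2 fold change was 0.13 for the import genes and 0.0062 for all genes.

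With PCT, Tomm6, Hspd1 and Timm8a1 were higher than in Control at an adjusted p of at most 0.05 in limma, 3 of 34 beside 4.2% of all genes in either direction and 1.75% higher. Only Timm8a1 among them was differentially expressed, beside 2.31% of all genes. The fold change was above 1 in 33 of the 34, Timm29 being the exception, whereas 51% of all genes lay above 1. For some of the 33 this rested on PCT replicate 3. The mean FPKM of PCT replicates 1 and 2 lay below the Control mean for Timm13 (42.8 against 44.2) and Tomm40 (51.1 against 51.3). It also did for Mtx1 (19.8 against 20.5) and Tomm40l (14.4 against 14.6), and lay above it for the rest of the 33. At an unadjusted p under 0.05, 16 were higher and 0 lower, beside 10.1% and 8.79% of all genes. The PCT libraries lay wholly above Control for 16 genes, or 47.1%, beside 13.1%, and wholly below for 0, beside 11.9%. The median log2 fold change was 0.25, beside 0.0046 over all genes. The comparisons of NPCT and of PCT with vehicle share the same 3 Control libraries.

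Between NPCT and PCT, 8 import genes, or 23.5%, passed the adjusted threshold in limma beside 16.3% of all genes, 1 higher (Timm13) and 7 lower with NPCT (Tomm20, Tomm70, Tomm5, Timm21, Hspa9, Hspd1 and Hspe1). These were 2.94% and 20.6% of the 34, beside 7.97% and 8.32% of all genes. Timm13 alone was differentially expressed, beside 5.76% of all genes. At an unadjusted p under 0.05, 2 were higher and 12 lower with NPCT, beside 15.6% and 17.5%. The NPCT libraries lay wholly above PCT for 2 import genes, Timm29 and Timm50, and wholly below for 10, beside 15.4% and 18%. The difference was above 0 in 11 of 34, beside 48.9%. The median log2 difference was -0.08, beside -0.0076 over all genes.

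At the outer membrane, 2 of the 3 receptor genes, Tomm70 and Tomm20, were lower with NPCT than with PCT, beside 8.32% of all genes tested. Tomm70 (ENSRNOG00000001640, chr11:45480250-45510961, minus strand, Rnor_6.0) encodes a receptor that binds precursors together with cytosolic chaperones. It measured 75.2, 75.8 and 68.2 FPKM in Control, 60.3, 58.7 and 58.4 with NPCT and 81.0, 75.1 and 76.7 with PCT. All 3 NPCT libraries lay below all others, and PCT overlapped Control. The log2 difference between NPCT and PCT was -0.39 ± 0.0589 (SE; 95% interval -0.52 to -0.26; adjusted p = 0.0048, limma), and that between NPCT and Control was -0.30 ± 0.0589 (adjusted p = 0.0509). The lower level with NPCT than with PCT kept an adjusted p of at most 0.05 without any single library, with 0.022 as the highest value.

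Tomm20 (ENSRNOG00000019980, chr19:59863421-59873411, minus strand), the receptor for presequences, measured 116, 117 and 125 FPKM in Control, 110, 107 and 111 with NPCT and 130, 150 and 120 with PCT. NPCT lay below Control and PCT without overlap, and PCT replicate 3 lay within the range of Control. The gene was lower with NPCT than with PCT by a log2 difference of -0.28 ± 0.0784 (interval -0.46 to -0.10, adjusted p = 0.0419, limma). That call held in 1 of 9 fits that left out a single library. It was lost in limma on NPCT and PCT alone (adjusted p = 0.106), in limma with a replicate block (0.0631) and in limma-voom (0.0531). Tomm22, the central receptor that joins the channel, measured 65.4, 67.7 and 73.8 FPKM in Control, 73.8, 65.1 and 76.8 with NPCT and 79.6, 82.8 and 85.2 with PCT. Only the PCT libraries stood apart, with an adjusted p of 0.0956 against Control and 0.0996 against NPCT (limma).

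Among the TOM genes, the small subunits Tomm7 and Tomm6 had the largest fold changes with NPCT. Tomm6 (ENSRNOG00000046316, chr9:15313523-15314435, plus strand), which helps to hold the TOM complex together, measured 214, 200 and 237 FPKM in Control, 352, 317 and 407 with NPCT and 282, 338 and 340 with PCT. Every treated library exceeded every Control library. Against Control the log2 fold change was 0.72 ± 0.112 with NPCT, a 1.65-fold level (adjusted p = 0.0493, limma), and 0.56 ± 0.112 with PCT, a 1.47-fold level (adjusted p = 0.03). Without PCT replicate 3 the adjusted p was 0.0063 with NPCT and 0.0589 with PCT. The log2 difference between the peptides was 0.16 with an interval from -0.09 to 0.42 (adjusted p = 0.346), which does not show that they acted alike.

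Tomm7 (ENSRNOG00000043114, chr4:7835949-7842789, plus strand), another small subunit that tunes the assembly of the complex, measured 26.0, 27.8 and 37.1 FPKM in Control and 92.4, 71.2 and 96.1 with NPCT. With PCT it measured 35, 38.7 and, in replicate 3, 81.2 FPKM. The NPCT libraries lay far above Control, whereas PCT replicates 1 and 2 lay at the level of the highest Control library and PCT replicate 3 within the range of NPCT. The log2 fold change with NPCT was 1.52 ± 0.294 (interval 0.85 to 2.18), a 2.86-fold level, yet its adjusted p was 0.0509 (limma). Without PCT replicate 3, with the same fold change, it was 0.0027, and in a fit of the NPCT and Control libraries alone 0.0049. The difference between NPCT and PCT was 0.84 (adjusted p = 0.0829), and 1.22 without PCT replicate 3 (adjusted p = 0.0021).

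Tomm5, a further small subunit, was lower with NPCT than with PCT by -0.56 ± 0.158 (adjusted p = 0.0433, limma). It measured 3.47, 3.68 and 3.52 FPKM in Control, 2.94, 3.51 and 4.18 with NPCT and 5.02, 6.24 and 4.55 with PCT. The PCT libraries lay above all others. Its span lies wholly within that of Fbxo10 on the same strand (9.73 FPKM), so reads of the pair may have been divided between them and the value is uncertain. Tomm40, the channel itself, measured 50.5, 48.6 and 54.8 FPKM in Control, 66.4, 57.2 and 67.8 with NPCT and 55.0, 47.2 and 73.4 with PCT. Its NPCT libraries lay above Control (log2 fold change 0.31, adjusted p = 0.191, limma, and 0.037 in the fit of these 2 groups alone). Its relative Tomm40l had 14.6 ± 0.308 FPKM in Control and 15.1 ± 0.569 and 15.5 ± 1.90 with NPCT and PCT.

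**Figure D2:**
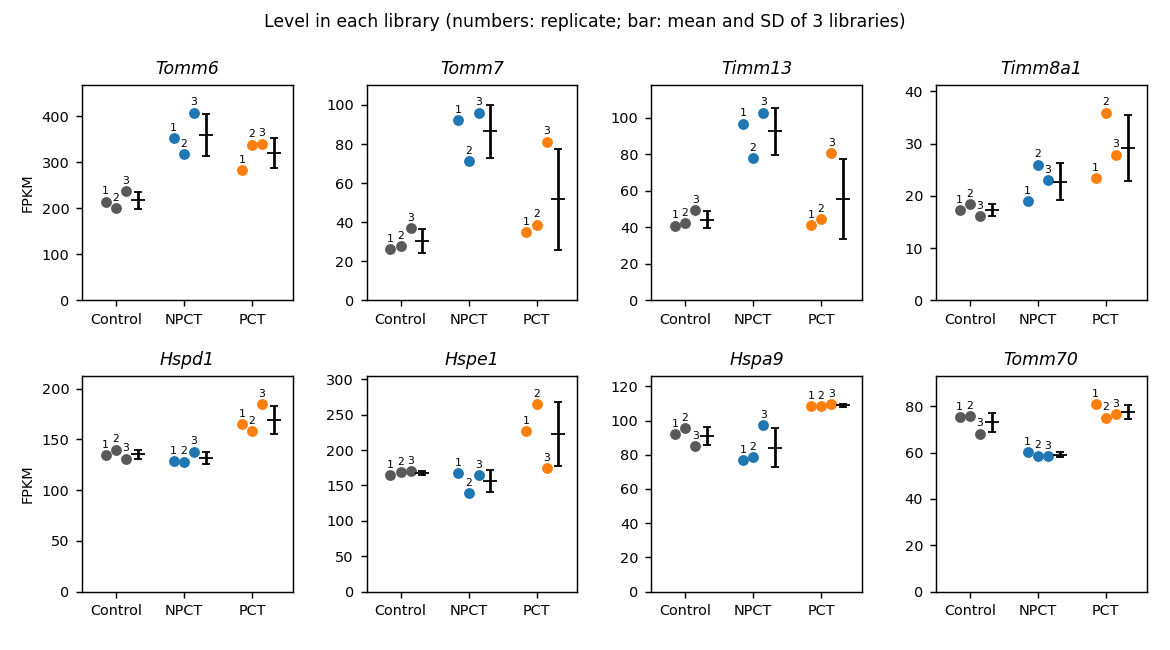
FPKM of 8 import genes in every library, with the replicate number above each point and the mean and SD of the 3 libraries as a bar; the vertical axes start at 0. PCT replicate 3 lies near the NPCT libraries for Tomm7 (81.2 FPKM) and Timm13 (80.6 FPKM), and NPCT lies below all other libraries for Tomm70.

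The outer membrane also holds Samm50, the core of the machinery that inserts barrel proteins. Samm50 measured 36.2, 34.5 and 34.5 FPKM in Control, 43.4, 42.2 and 44.0 with NPCT and 40.0, 38.5 and 45.4 with PCT. Both peptides lay above Control without overlap, at 1.23-fold (adjusted p = 0.053) and 1.18-fold (adjusted p = 0.0985, limma). Its partners Mtx1 and Mtx2 had 20.5 ± 0.318 and 16.9 ± 0.629 FPKM in Control, 23.4 ± 0.981 and 18.2 ± 2.11 with NPCT, and 21.1 ± 2.23 and 19.3 ± 0.574 with PCT. Tomm34, a cytosolic cochaperone of precursors, measured 40.8, 35.6 and 34.3 FPKM in Control, 33.2, 31.3 and 31.6 with NPCT and 41.9, 37.2 and 33.7 with PCT. NPCT lay below Control and PCT without overlap, with adjusted p-values of 0.185 and 0.127 (limma).

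In the intermembrane space, Chchd4 and Gfer form the relay that oxidizes cysteines of incoming proteins. Chchd4 measured 6.41, 6.35 and 8.49 FPKM in Control, 7.30, 7.94 and 10.2 with NPCT and 11, 10.2 and 13 with PCT. The PCT libraries lay above Control, at 1.61-fold (log2 fold change 0.68 ± 0.161, adjusted p = 0.0506, limma), and met NPCT at its highest library. Gfer measured 8.82, 7.55 and 8.67 FPKM in Control, 6.88, 6.30 and 9.81 with NPCT and 10.7, 10.8 and 9.47 with PCT. Its PCT libraries also lay above Control, but NPCT replicate 3 lay above PCT replicate 3 (adjusted p = 0.335 for PCT against Control).

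The small TIM chaperones, which shield hydrophobic precursors in the intermembrane space, did not follow a single pattern. Timm13 (ENSRNOG00000019682, chr7:11677340-11678442, plus strand) measured 40.9, 42.1 and 49.5 FPKM in Control and 96.8, 77.9 and 103 with NPCT. With PCT it measured 41.3, 44.3 and 80.6. As for Tomm7, 2 PCT libraries lay at the Control level and replicate 3 within the range of NPCT. Timm13 was higher with NPCT than with PCT by a log2 difference of 0.80 ± 0.231, a 1.74-fold level (adjusted p = 0.047, limma). Without PCT replicate 3 this difference was 1.10 (adjusted p = 0.0011). Against Control, the NPCT level was 2.08-fold (adjusted p = 0.0519, and 0.003 without PCT replicate 3).

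Timm8a1 (ENSRNOG00000011226, chrX:105352402-105355716, minus strand) encodes the partner with which Timm13 works, and its human counterpart is the gene of a deafness and dystonia syndrome. It measured 17.3, 18.3 and 16.1 FPKM in Control, 18.9, 26.0 and 23.0 with NPCT and 23.4, 35.9 and 27.9 with PCT. Each treated library exceeded the Control libraries. Timm8a1 was 1.66-fold higher with PCT than in Control (log2 fold change 0.73 ± 0.16, adjusted p = 0.0402, limma, and 0.0646 without PCT replicate 3) and 1.3-fold with NPCT (adjusted p = 0.152), and the peptides differed by -0.35 (interval -0.71 to 0.01, adjusted p = 0.166). The 2 partners were called in different comparisons, but a difference between them was not tested, and Timm13 with NPCT against Control lay close to the threshold.

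Timm9 and Timm10, which form the main small TIM complex, had 25.2 ± 1.91 and 15 ± 4.16 FPKM in Control, 24.4 ± 0.878 and 21.0 ± 3.07 with NPCT and 28.4 ± 2.81 and 22.5 ± 5.61 with PCT. Timm10 measured 17.4, 10.2 and 17.5 FPKM in Control, 19.1, 19.3 and 24.5 with NPCT and 18.6, 19.9 and 28.9 with PCT. All treated libraries lay above all Control libraries, with adjusted p-values of 0.183 and 0.208 (limma). Timm10b had 4.49 ± 0.712 FPKM in Control, 4.76 ± 0.566 with NPCT and 4.78 ± 0.314 with PCT. Timm9 lies within the span of AC128303.1, and 98.8% of the span of Timm10b lies within Dnhd1.

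Among the untested genes, Timm8a2 had 9 fragments over all libraries and Timm8b had 4, with at most 3 and 2 in any library. Timm17b was listed at 0 in all 9 libraries, and a count of 0 (up to 3 fragments) allows 0.329 to 0.413 FPKM there, covering counting error only. The span of Timm17b lies wholly within Pqbp1 on the other strand (29.8 FPKM), and 38.6% of the span of Timm8b overlaps Nkapd1 on the other strand (24.9 FPKM). Whether reads were counted by strand is not given in the sources used here, so these low values do not show that the genes were silent.

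In the inner membrane, neither gene of the carrier translocase passed in any comparison, beside 0.47% (NPCT), 4.2% (PCT) and 16.3% (between them) of all genes. Timm22, its channel, measured 14.3, 14.6 and 13.8 FPKM in Control, 16.6, 15.5 and 16.9 with NPCT and 14.6, 15.9 and 16.3 with PCT. NPCT lay above Control at 1.14-fold (adjusted p = 0.108, limma). Timm29, its metazoan subunit, measured 25.5, 23.4 and 27.5 FPKM in Control, 27.6, 25.1 and 28.1 with NPCT and 24.9, 22.3 and 25.0 with PCT, with overlap of both peptides with Control.

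Of the presequence translocase, 1 gene of 4 tested (Timm21) passed, between the peptides, beside 16.3% of all genes and 8.32% lower with NPCT. Timm23, its channel, measured 40.4, 46.5 and 49.99 FPKM in Control, 54.2, 51.0 and 58.2 with NPCT and 53.7, 51.7 and 75.1 with PCT. Timm17a, which pairs with it, measured 37.5, 41.6 and 42.6 in Control, 47.1, 47.9 and 50.9 with NPCT and 45.6, 51.0 and 52.6 with PCT. Both genes lay above Control in every treated library, and Timm17a did so at 1.2-fold with NPCT (adjusted p = 0.0694) and 1.22-fold with PCT (adjusted p = 0.0671, limma). Timm21 (ENSRNOG00000015142, chr18:81803173-81807627, minus strand), which couples the TOM and TIM23 complexes, measured 10.7, 11.5 and 12.7 FPKM in Control, 10.7, 8.81 and 9.91 with NPCT and 13.6, 13.5 and 11.5 with PCT. The gene was lower with NPCT than with PCT (log2 difference -0.39 ± 0.106, adjusted p = 0.0391, limma). Timm50, the receptor of this complex, had 22.6 ± 1.64 FPKM in Control, 25.1 ± 1.35 with NPCT and 23.3 ± 0.364 with PCT.

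The motor that drives import at the matrix side is built around Hspa9, the mitochondrial Hsp70. Hspa9 (ENSRNOG00000019525, chr18:27731072-27749235, minus strand) measured 91.9, 95.8 and 85.3 FPKM in Control, 76.8, 78.6 and 97.3 with NPCT and 108, 108 and 110 with PCT. PCT lay above all other libraries, and NPCT replicate 3 lay above Control while NPCT replicates 1 and 2 lay below. The gene was lower with NPCT than with PCT by -0.38 ± 0.0901 (interval -0.58 to -0.17, adjusted p = 0.0262, limma), and PCT was 1.2-fold above Control (adjusted p = 0.154).

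Grpel1, the exchange factor of Hspa9, measured 32.7, 31.9 and 30.8 FPKM in Control, 41.5, 39.6 and 48.5 with NPCT and 32.2, 36.2 and 47.5 with PCT. NPCT lay above Control at 1.35-fold (adjusted p = 0.0798, limma, and 0.0151 in the fit of these 2 groups alone), and PCT overlapped it. Pam16 and Dnajc19 regulate Hspa9 at the channel. Pam16 measured 35.3, 41.7 and 34.4 FPKM in Control, 52.6, 39.9 and 48.0 with NPCT and 43.9, 63.5 and 53.2 with PCT. Dnajc19 measured 7.39, 7.004 and 6.54 FPKM in Control, 8.49, 8.60 and 8.32 with NPCT and 7.78, 9.46 and 9.62 with PCT. Every treated library lay above Control for Dnajc19, and for Pam16 NPCT replicate 2 alone did not. Their adjusted p-values against Control were 0.175 and 0.106 with NPCT and 0.0921 and 0.0866 with PCT (limma). Timm44, the anchor of the motor, had 18.7 ± 0.819, 20.2 ± 1.13 and 21.2 ± 2.18 FPKM in the same order. Of the span of Dnajc19, 68.3% overlaps Fxr1 on the other strand, so its values are uncertain.

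The chaperonin genes Hspd1 and Hspe1, which diverge from the shared start region shown above, encode the barrel and the lid of the matrix folding chamber. Hspd1 (ENSRNOG00000014525, chr9:61680530-61690956, minus strand) measured 135, 140 and 131 FPKM in Control, 128, 128 and 138 with NPCT and 165, 158 and 185 with PCT. NPCT and Control overlapped, and PCT lay above both. Hspd1 rose 1.25-fold with PCT against Control (log2 fold change 0.32 ± 0.0685, adjusted p = 0.0366, limma) and was lower with NPCT than with PCT by -0.36 ± 0.0685 (interval -0.52 to -0.21, adjusted p = 0.0123). The log2 fold change of NPCT against Control was -0.04 with an interval of -0.20 to 0.11.

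Hspe1 (ENSRNOG00000051624, chr9:61692154-61694599, plus strand) measured 165, 169 and 170 FPKM in Control, 167, 139 and 164 with NPCT and 227, 265 and 175 with PCT. Its PCT libraries also lay above all others, PCT replicate 3 least. Hspe1 was lower with NPCT than with PCT by -0.49 ± 0.137 (adjusted p = 0.0431, limma), and its 1.3-fold level with PCT against Control had an adjusted p of 0.168. Without PCT replicate 3 these values were -0.65 (adjusted p = 0.0023) and, against Control, a log2 fold change of 0.55 (adjusted p = 0.0218). PCT replicate 3 was thus the lowest PCT library for Hspe1 and the highest for Hspd1.

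The peptidase that removes presequences consists of Pmpca and Pmpcb. Pmpca measured 25.9, 27.2 and 25.2 FPKM in Control, 30.0, 27.2 and 35.8 with NPCT and 27.3, 25.4 and 30.4 with PCT. Pmpcb measured 35.6, 39.5 and 38.6 FPKM in Control, 37.9, 33.5 and 38.4 with NPCT and 38.8, 42.7 and 34.9 with PCT. The groups overlapped for Pmpcb, and for Pmpca NPCT lay above Control, though barely so in its lowest library (1.18-fold, adjusted p = 0.17, limma).

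**Figure D3:**
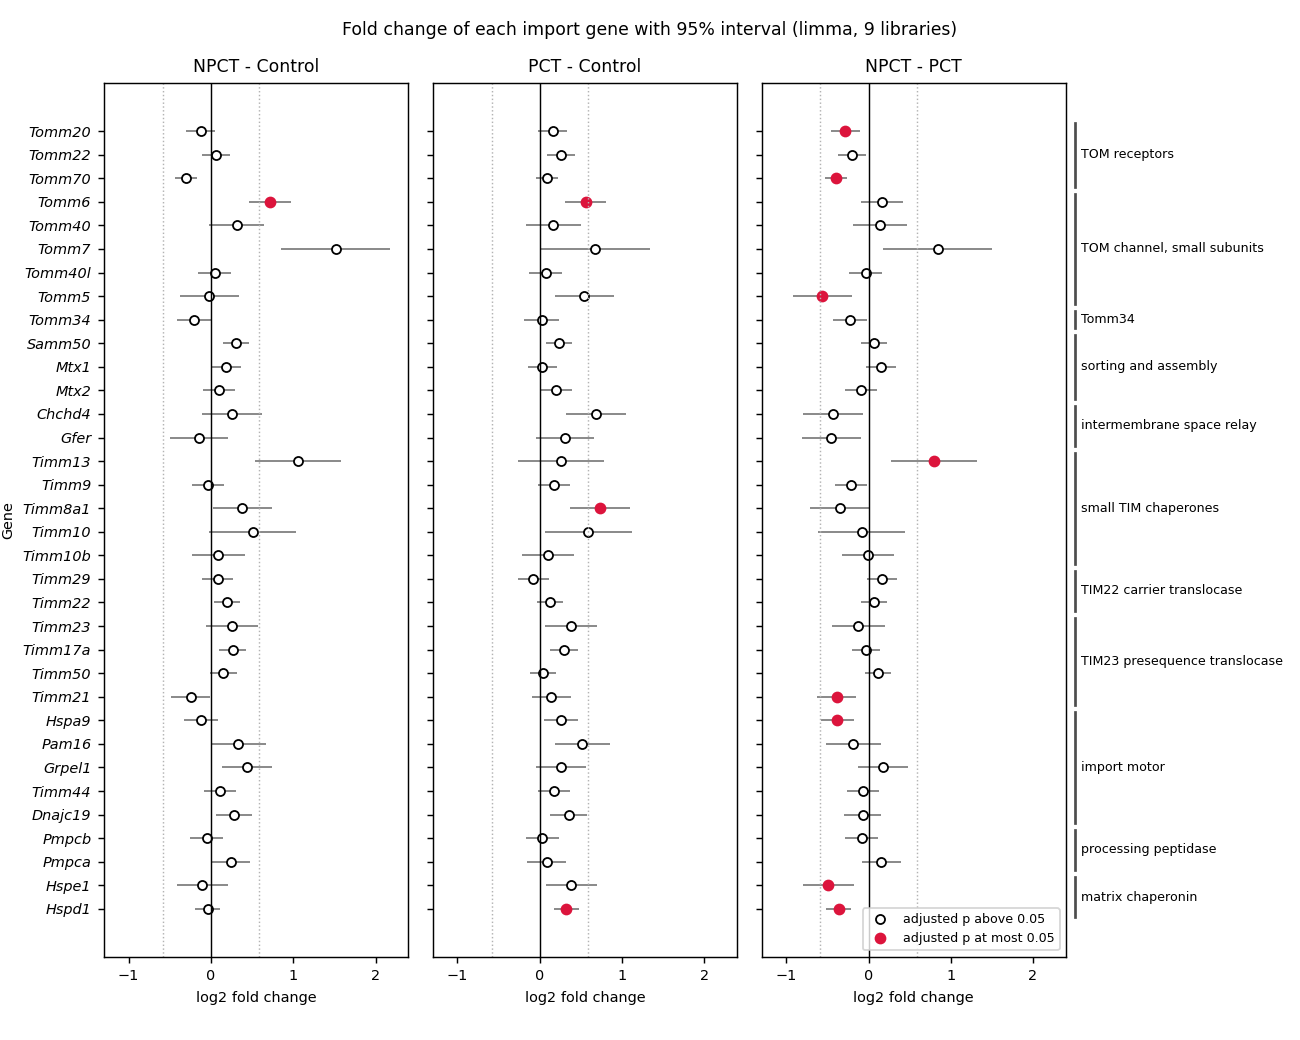
Log2 fold change of each of the 34 import genes (points) with its 95% interval (lines) from limma over 9 libraries, for NPCT against Control, PCT against Control and NPCT against PCT. Filled points have an adjusted p of at most 0.05, and dotted lines mark a 1.5-fold change. With PCT, 33 of 34 points lie to the right of 0, and 7 of the 8 filled points of NPCT against PCT lie to the left.

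Genes that work with the import machinery were counted in 3 lists. Of 12 tested import partners (processing peptidases of the inner membrane and matrix, insertases and cochaperones), 0 had an adjusted p of at most 0.05 against Control with either peptide, while at an unadjusted p under 0.05 there were 0 higher and 1 lower with NPCT and 4 higher and 1 lower with PCT (limma). Of all genes, 14.4% were higher and 14.9% lower at this threshold with NPCT, and 10.1% and 8.79% with PCT. At the adjusted threshold, 0.47% of all genes passed with NPCT and 4.2% with PCT, in either direction. Between NPCT and PCT, Immp1l (log2 difference -0.33, adjusted p = 0.0176), a subunit of the inner membrane peptidase, and Pitrm1 (-0.29, adjusted p = 0.0223), which degrades cleaved presequences, were lower with NPCT, 16.7% of the list beside 8.32% of all genes. The medians of the list were -0.08 with NPCT and 0.13 with PCT. Romo1 was listed at 0 in all 9 libraries.

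Of 7 tested mitochondrial proteases, Lonp1, which degrades misfolded matrix proteins, was higher with PCT than in Control by 0.47 ± 0.0793 (adjusted p = 0.0141, limma), as were 1.75% of all genes. With NPCT, 0 of 7 had an adjusted p of at most 0.05, beside 0.47% of all genes. At an unadjusted p under 0.05 there were 5, all higher, or 71.4% beside the 14.4% of all genes. The medians were 0.22 with NPCT and 0.21 with PCT. Of 9 tested cytosolic chaperones that deliver precursors, Stip1 (0.30, adjusted p = 0.0396) and Dnaja1 (0.24, adjusted p = 0.0486) were higher with PCT than in Control, or 22.2% beside the 1.75% of all genes. With NPCT 0 passed, beside 0.47% of all genes. There Stip1 was higher and Hspa4 lower at an unadjusted p under 0.05, beside 14.4% and 14.9% of all genes. Dnaja1 (-0.22, adjusted p = 0.0301) and Hspa4 (-0.24, adjusted p = 0.0272) were lower with NPCT than with PCT, again beside 8.32% of all genes. The medians were -0.06 with NPCT and 0.09 with PCT. Beside these, 73 mitochondrial ribosomal protein genes had medians of 0.21 with NPCT and 0.23 with PCT. The 38 genes of SLC25 carriers, which are themselves cargo of the small TIM chaperones, had 0.08 and 0.0071. A fold change above 1 with PCT was thus not particular to the import genes. It was seen in 67 of 73 mitochondrial ribosomal protein genes and 7 of 7 proteases, and in 9 of 12 import partners, 7 of 9 cytosolic chaperones and 21 of 38 carriers. The import genes were not tested against these lists, and fits without single libraries are not given for the calls on genes that work with the import machinery.

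Gene length moved with the fold changes. The 9 import genes shorter than 1000 bases had a median log2 fold change of 0.33 with NPCT and 0.38 with PCT, beside 0.15 and 0.07 for all 3143 genes of such length. The 25 longer import genes had 0.10 and 0.18, beside -0.01 and -0.0012 for 12815 longer genes. Over the import genes, the rank correlation (Spearman's rho) of fold change with length was -0.38 with NPCT and -0.49 with PCT, beside -0.22 and -0.14 over all genes, as a description over genes that share the same libraries. After the trend with length was removed from each library, the medians of the import genes were 0.10 with NPCT, 0.18 with PCT and -0.12 for NPCT against PCT. In that fit Tomm6 was still called with NPCT (0.61, adjusted p = 0.0463, limma) and PCT (0.47, adjusted p = 0.0428), as was Hspd1 with PCT (0.31, adjusted p = 0.0314), but Timm8a1 was not (0.64, adjusted p = 0.0718). It also called Tomm7 (1.37, adjusted p = 0.0488) and Tomm70 (-0.37, adjusted p = 0.0463) with NPCT, Chchd4 with PCT (0.63, adjusted p = 0.0487) and Tomm22 between the peptides (-0.26, adjusted p = 0.0256), where Hspe1 was lost (adjusted p = 0.0591). Of all genes, 2.44%, 4.09% and 17.7% passed in this fit with NPCT, with PCT and between the peptides.

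**Figure D4:**
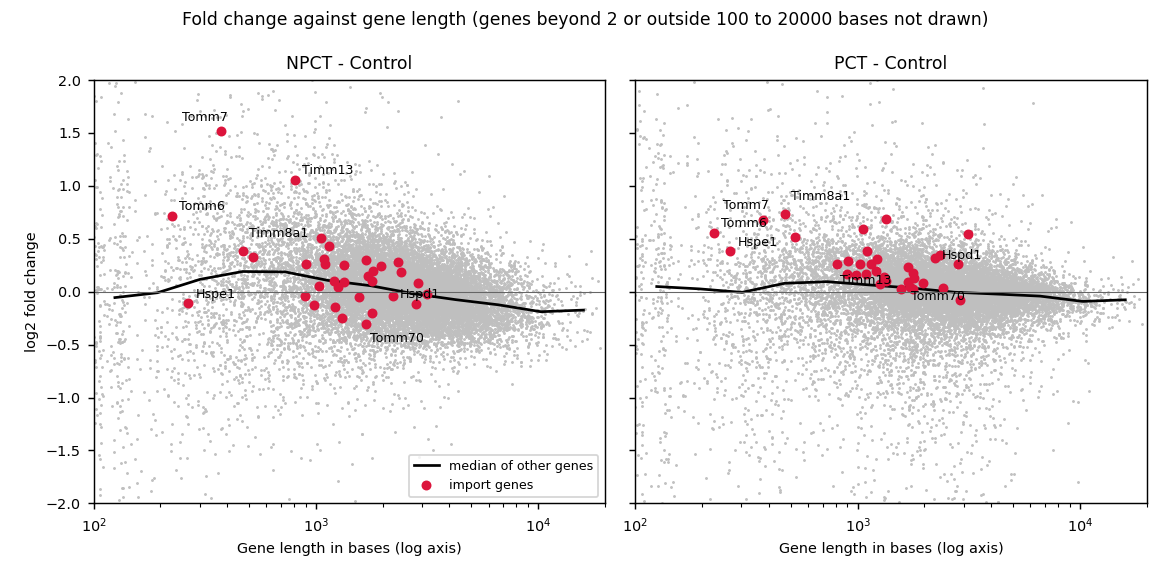
Log2 fold change against Control (vertical) of the import genes (large points) and all other genes tested (small points) by gene length in bases (horizontal, log axis), for NPCT and PCT. The line is the median of the other genes in bins of length with at least 20 genes. With NPCT the line lies above 0 for short genes, and Tomm6, Tomm7 and Timm13 lie above the line.

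The calls differed in how far they rested on single libraries. Tomm70 and Hspd1 remained lower with NPCT than with PCT in all 9 fits that each left out a single library (highest adjusted p 0.022 and 0.0483, limma), and Hspa9 in 5 of 9. Tomm6 passed in 2 of 9 such fits with NPCT and 3 of 9 with PCT, Hspd1 with PCT in 3 of 9 and Timm8a1 in 2 of 9. Timm21 and Tomm5 passed in 2 of 9, and Tomm20, Hspe1 and Timm13 in 1 of 9, always including that without PCT replicate 3. In fits of only the 2 groups compared, 8 import genes passed with NPCT against Control (Tomm6, Tomm7, Timm13, Tomm40, Timm17a, Samm50 and Grpel1 higher, Tomm70 lower), where 9.79% of all genes were higher and 9.06% lower. In such fits Tomm6 alone passed with PCT (adjusted p = 0.0438), where 0.927% of all genes were higher and 1.73% lower, and Tomm70 alone passed between the peptides (adjusted p = 0.0252), where 2.95% were higher and 1.83% lower. Without PCT replicate 3, 8 import genes were higher and 1 lower with NPCT than in Control, beside 9.71% and 9.57% of all genes. With PCT against Control 2 were higher and 0 lower, beside 1.65% and 2.49%, and between NPCT and PCT 5 were higher and 9 lower, beside 14.6% and 14.5%.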

How the data were processed

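RNA of 9 libraries (3 per group, grouped by the sample labels) was measured by poly-A RNA-seq. The authors aligned clean reads, counted fragments on genes and converted the counts to FPKM, and the deposited table holds FPKM, unlogged, for 34092 genes on Rnor_6.0. The submitters' processing notes name HISAT2 2.0.5, featureCounts 1.5.0-p3, StringTie 1.3.3b and DESeq2 1.20.0. Multiplied by gene length, 100% of the values fell on whole steps (tolerance 0.01), which gave the fragment totals. These FPKM values divide by gene length, so levels of different genes compare per length, and precision falls with few fragments.

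Genes of mean FPKM 0.5 or more were fitted as log2(FPKM + 0.1) with limma 3.58.1 (R 4.3.3), 1 mean per group over all 9 libraries, with an intensity trend and Benjamini-Hochberg adjustment within each comparison. Because the deposited unit is FPKM, limma on log2 values took the place of the authors' DESeq2, and limma-voom on recovered fragments was an alternative. Fold changes are on the log2(FPKM + 0.1) scale, which understates changes of low genes. Size factors were 1 in all libraries. On simulated data for NPCT against Control (16003 genes), 176 of 200 genes changed 2-fold (88%) were called, 0 of them with the wrong sign, beside 9 false calls. The simulated spread between libraries was set by a formula and not estimated from these libraries, and only genes with many fragments were changed. No simulated library stood apart, and there was no trend with length. The 88% is therefore not the share of such changes found in the real data. Over genes of mean FPKM 5 or more, departures from group means correlated little between libraries of the same replicate number (-0.09 to 0.17). The libraries were therefore not paired. In each group, however, replicate 3 had the highest summed level of the import genes (1562, 1945 and 1985 FPKM in Control, NPCT and PCT). Pairing was not tested for the import genes alone.

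The members and lists were chosen with earlier results of these data known. Every import gene is named. Values of all libraries are given for the 20 genes that passed an adjusted p of 0.05 in any comparison or had, within their role, the highest level or the smallest p for NPCT. Another 7 (Tomm7, Tomm22, Tomm40, Timm10, Pam16, Gfer and Dnajc19) were added after their values were seen. Promoter sequences are from RefSeq (GRCr8), and coordinates of genes are those of the deposited table. Alternatives were other pseudocounts, filters, quantile normalization, fits of 2 groups, a replicate block, removal of the length trend (lowess), limma-voom on the recovered fragments and leaving out each library. The fit of 2 groups with the length trend removed was chosen after seeing the data.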

Additional observations from a re-analysis of the deposited data

Results flagged for a closer look

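For 8 import genes, the response to NPCT differed from the response to PCT by a test of the difference itself (limma, adjusted p of at most 0.05, 3 libraries per group). This is the direct comparison of NPCT with PCT given above, not a further test. The 8 genes were 23.5% of the 34 genes, beside 16.3% of all genes tested. With NPCT relative to PCT, the log2 difference was -0.49 for Hspe1, -0.36 for Hspd1, -0.28 for Tomm20, -0.38 for Hspa9, -0.39 for Tomm70, -0.39 for Timm21 and -0.56 for Tomm5. It was 0.80 for Timm13. The difference of Timm13 had the highest adjusted p of these (0.047) and that of Tomm70 the lowest (0.0048). Tomm70 and Hspd1 passed in all 9 fits that left out a library, Hspa9 in 5 of 9, Timm21 and Tomm5 in 2 of 9 and Tomm20, Hspe1 and Timm13 in 1 of 9. In the fit of NPCT and PCT alone, only Tomm70 passed (adjusted p = 0.0252). PCT replicate 3 lay above both other PCT libraries for 21 of the 34 genes (61.8%, beside 38.7% of all genes tested) and below both for 8 (23.5%, beside 37.4%), and NPCT replicate 3 was the highest NPCT library for 23 of 34 (67.6%, beside 38%). These shares were not tested.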

How the results depend on the processing

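For the 27 genes with values of all libraries, 1427 of 1620 values under alternatives kept direction and side of the threshold, 106 lost the threshold, 62 passed it and 25 changed sign. All 25 were small values of genes not called there. The cause of the changes was not tested unless a library is named.

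With NPCT against Control, the genes differentially expressed, the import genes among them and the import genes at an adjusted p of at most 0.05 were 208, 3 and 5 for a mean FPKM of at least 1, 9, 0 and 0 with no filter (13 import genes had an unadjusted p under 0.05 in limma with the filter), 189, 3 and 4 after quantile normalization, 579, 3 and 8 in the fit of 2 groups, 124, 2 and 3 with the length trend removed, 390, 3 and 5 in limma-voom, and 490, 3 and 8 in the fit of 2 groups with the length trend removed. With the replicate number as a block, though correlations by replicate number were low, they were 319, 3 and 6. Of all genes, 5.05%, 0.0468%, 3.77%, 18.8%, 2.44%, 8.8%, 17.6% and, under the block, 7.74% had an adjusted p of at most 0.05 in the same order. The block gave 2 differentially expressed import genes both with PCT against Control and for NPCT against PCT, beside 323 and 886 of all genes. Under the block the adjusted p of Hspd1 with PCT against Control was 0.0567, and between the peptides those of Hspe1, Tomm20, Timm21 and Tomm5 were 0.0641, 0.0631, 0.064 and 0.0553 (limma). In limma-voom the adjusted p between the peptides was 0.0531 for Tomm20 and 0.0674 for Timm21.

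With PCT against Control, the differentially expressed import genes were 2 for a mean FPKM of at least 1 and in limma-voom (beside 2.34% and 2.35% of all genes), and 0 with no filter, after quantile normalization and in the fits of 2 groups without and with the length trend removed (beside 1.29%, 2.06%, 1.8% and 1.93%). The import genes at an adjusted p of at most 0.05 were 0 with no filter and 1 in both fits of 2 groups (beside 2.06%, 2.66% and 2.74%), and the median was 0.18 in the fit of 2 groups with the length trend removed. For NPCT against PCT, the differentially expressed import genes were 2 after quantile normalization and in limma-voom (beside 5.4% and 6.01%), and 0 with no filter and in both fits of 2 groups (beside 3.37%, 2.84% and 3.37%). By adjusted p alone there were 3 with no filter, 1 in the fit of 2 groups and 2 there with the length trend removed (beside 8.34%, 4.78% and 6.43%). All genes differentially expressed were 454 in the fit of 2 groups and 538 there with the length trend removed.

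Leaving out each library gave 0 to 562 differentially expressed genes for NPCT, 172 to 398 for PCT and 525 to 1623 between them. Of the import genes, 0 to 3, 0 to 3 and 0 to 4 were differentially expressed, and 0 to 9, 0 to 5 and 2 to 14 had an adjusted p of at most 0.05, beside 0% to 19.3%, 1.3% to 4.54% and 6.24% to 29.1% of all genes. At an unadjusted p under 0.05 there were 10 to 17, 13 to 16 and 9 to 16, beside 20.7% to 34.5%, 14.4% to 20.8% and 25.7% to 41.2%. The medians ranged from 0.12 to 0.18, from 0.21 to 0.26 and from -0.15 to -0.010. The highest counts for NPCT and between the peptides came without PCT replicate 3.

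The sign changed for Tomm22 with NPCT (-0.00039 after quantile normalization, -0.069 with the length trend removed, -0.073 there with 2 groups), Tomm5 with NPCT (0.017 with the length trend removed, 0.016 there with 2 groups, 0.028 in limma-voom), Pmpcb with PCT (-0.0061 after quantile normalization, -0.014 with the length trend removed, -0.019 there with 2 groups), Tomm34 with PCT (-0.0051, -0.0087 and -0.013 in the same order) and Timm17a between the peptides (0.00028 in limma-voom). Without single libraries, the values ranged from -0.14 to 0.11 for Tomm5 and from -0.097 to 0.0090 for Pmpcb with NPCT, and with PCT from -0.041 to 0.44 for Timm13, from -0.042 to 0.10 for Pmpcb, from -0.057 to 0.10 for Tomm34 and from -0.0084 to 0.31 for Tomm40. Between the peptides they ranged from -0.22 to 0.046 for Timm23, from -0.091 to 0.012 for Timm17a and from -0.20 to 0.11 for Timm10. The sign of Timm13 and Tomm40 with PCT, and of these 3 between the peptides, changed without PCT replicate 3. Depth limits the low genes most, with 77 to 114 fragments per library for Timm10b against 3999 to 7223 for Hspd1.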
